A study of Mus musculus with 4 samples.

Results

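In the library labelled fat P1, 105 of 1948 kept cell barcodes carried Esm1 or Cxcr4 transcripts and stayed within the limits set for aerocyte and leukocyte genes (5.39%, exact 95% interval 4.43 to 6.49). A barcode was kept with at least 1000 UMIs (unique transcript molecules), at least 500 genes and at most 10% mitochondrial UMIs. Of the kept barcodes, those with 2 or more UMIs of Esm1 and Cxcr4 together, at most 3 of Ednrb and Fibin together, 0 of Ptprc and at least 1 of Cdh5 and Pecam1 together formed the set, called here the Esm1/Cxcr4 barcodes. The members were thus chosen by the measured counts of these 7 genes, whose levels are given below as a description. The 4 libraries of the study held 11934 kept barcodes.

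The study sorted vessel progenitor cells of C57BL/6 mice, untreated as far as the labels say, from fat and from lung. Population P1 was gated as positive for Tie2 and CD31, high for CD105, low for Sca1, and negative for CD45, Ter119 and PDGFRa. Population P2 was PDGFRa positive, CD31 negative, high for Sca1 and low for CD105, with the same CD45, Ter119 and Tie2 gates as P1. Each population of each tissue was sequenced as 1 library, and neither the number of pooled animals nor their age or sex is given in the sources used here. With 1 library a group and barcodes that are not replicates of a condition, no test was made. Intervals are exact 95% intervals that cover counting error only.

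In sprouting vessels, a leading tip cell migrates towards VEGF while trailing stalk cells, restrained by Notch signalling, form the tube. In the mouse retina Esm1 (endocan, a secreted proteoglycan) and Cxcr4 (the receptor of the chemokine Cxcl12) are known from tip cells, and cells of that kind can later join arteries. Lung alveoli have a pair of capillary types: aerocytes, marked by Car4 and Ednrb, and general capillary cells, marked by Gpihbp1 and Plvap.

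The members were endothelial by their own transcripts, but the tissue label was not borne out by markers. Beside the rule genes Cdh5 (2073 CPM, that is UMIs of the summed barcodes per 1000000) and Pecam1 (1669 CPM), the gate genes Tek (Tie2) and Eng (CD105) reached 1156 and 1876 CPM in the members. Ly6a, the gene of Sca1, reached 2065 CPM although the gate asked for low Sca1, and Pdgfra had 1 UMI. Over all kept barcodes, Foxf1, a transcription factor of lung mesenchyme and lung endothelium, measured 716 CPM under the label fat P1 and 3.58 CPM under the label lung P1. Sftpc, the surfactant gene of lung alveolar epithelium, measured 738 CPM under the label fat P1 and had 0 UMIs under the label lung P1. Fabp4, abundant in fat endothelium, measured 94.2 CPM under the label fat P1 and 12379 CPM under the label lung P1. In the members themselves Foxf1 stood at 547 CPM, and 2 of 105 barcodes held all 53 Fabp4 UMIs. The libraries are therefore named by their labels throughout, with no tissue read from them.

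The Esm1/Cxcr4 barcodes held 385869 UMIs, between 1217 and 8878 a barcode with a median of 3406. They were set against all other kept barcodes (1843, median 2937 UMIs), and within these against a pair of endothelial classes. The closest class, 1388 other non-aerocyte endothelial barcodes with a median of 2714.5 UMIs, missed the rule by Esm1 and Cxcr4 alone. The other class, 417 aerocyte-like barcodes with a median of 4111 UMIs, had 4 or more UMIs of Ednrb and Fibin. A further 38 barcodes carried Ptprc or lacked both Cdh5 and Pecam1. None of the members' barcode sequences occurred in another library, while 28 of the 3783 barcodes of the whole library did.

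Esm1 and Cxcr4 defined overlapping but unequal sets of members. Both genes were found in 49 members, Esm1 without Cxcr4 in 24 and Cxcr4 without Esm1 in 32. Esm1 was uneven: 32 members had 0 UMIs, 51 had 1 to 4 and 22 had 5 or more, with a highest value of 34, and the 10 highest barcodes held 49.3% of its 420 UMIs. Cxcr4 was more evenly spread, with a highest value of 9 and 27.9% of its 201 UMIs in the 10 highest barcodes. Summed over members, Esm1 stood at 1088 CPM (987 to 1198) and Cxcr4 at 521 CPM (451 to 598), against 8.51 and 30.6 CPM in the other non-aerocyte barcodes and 7.73 and 13.8 CPM in the aerocyte-like barcodes.

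**Figure D1:**
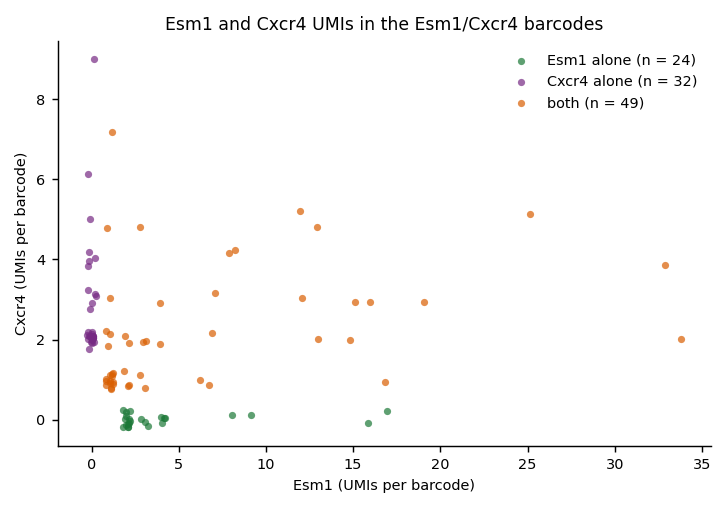
Esm1 UMIs (horizontal axis) and Cxcr4 UMIs (vertical axis) in each of the 105 Esm1/Cxcr4 barcodes, coloured by whether Esm1, Cxcr4 or both were found, with points shifted slightly at random so that they do not overlap. The Esm1 axis runs to 34 UMIs and the Cxcr4 axis to 9, and 49 barcodes carry both genes.

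The genes lie on chromosomes 13 and 1 of the mouse build GRCm38, Esm1 at chr13:113209659-113218098 on the plus strand and Cxcr4 at chr1:128588199-128592293 on the minus strand. Because ETS-family factors, which bind a GGAA core, are general regulators of endothelial genes, the 200 bases upstream of the start of Esm1, Cxcr4 and Efnb2 are shown from RefSeq (GRCm38.p6), 5′ to 3′ on the gene's strand. Capitals mark GGAA or its reverse complement TTCC.
Esm1, chr13:113209459-113209658, plus strand: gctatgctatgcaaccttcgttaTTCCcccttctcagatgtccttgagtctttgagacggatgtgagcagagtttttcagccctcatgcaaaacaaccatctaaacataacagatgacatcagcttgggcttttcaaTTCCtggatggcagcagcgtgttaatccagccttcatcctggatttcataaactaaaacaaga
Cxcr4, chr1:128592300-128592499, minus strand: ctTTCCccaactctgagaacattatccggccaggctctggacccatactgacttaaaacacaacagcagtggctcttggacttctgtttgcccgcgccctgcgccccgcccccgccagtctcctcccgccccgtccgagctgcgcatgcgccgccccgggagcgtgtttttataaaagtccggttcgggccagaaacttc
Efnb2, chr8:8661243-8661442, minus strand: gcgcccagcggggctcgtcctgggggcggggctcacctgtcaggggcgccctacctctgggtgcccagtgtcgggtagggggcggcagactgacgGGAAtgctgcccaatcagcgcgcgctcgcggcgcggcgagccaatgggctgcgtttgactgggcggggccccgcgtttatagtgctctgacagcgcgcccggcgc
The core occurred 2 times upstream of Esm1 and 1 time each upstream of Cxcr4 and Efnb2. On either strand it was found in 89.0% of 32851 RefSeq promoters of the same length, with a median of 2 sites, so its presence does not set these genes apart.

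Cxcr4 was found more often in barcodes with Esm1 than in barcodes without it. To compare shares at 1 depth, each barcode was thinned to 2000 UMIs, which left out 11 of 105 members, 390 of 1388 other non-aerocyte and 47 of 417 aerocyte-like barcodes. Over members and other non-aerocyte barcodes together, Cxcr4 was found in 31 of 71 barcodes with Esm1 (43.7%, 31.9 to 56.0) and in 91 of 1021 without it (8.91%, 7.24 to 10.8). Without thinning these shares were 45.4% and 11.4%. Among aerocyte-like barcodes, which should lack both genes, Esm1 was found in 1.08% and Cxcr4 in 0.541% after thinning.

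Of the 4 other genes given as markers of these cells, Efnb2, Osmr and Ivns1abp were at least 2-fold higher in the members than in the closest class, and Lpl was not. The markers were named with earlier results of these data known, so their levels describe the set and are no support for it. Efnb2, the ephrin ligand of arterial endothelium (chr8:8617434-8661242), stood at 2060 CPM (1920 to 2209) in the Esm1/Cxcr4 barcodes, 978 CPM (948 to 1008) in other non-aerocyte barcodes and 343 CPM in aerocyte-like barcodes. It was found in 93.6%, 69.0% and 38.4% of these 3 classes after thinning. This was a ratio of 2.11 (1.95 to 2.28) over the closest class, with 103 of 105 members carrying the gene. A smaller set held the 24 members without UMIs of the listed leukocyte, epithelial and erythroid genes, Cd74 excepted. It is called below free of other cell types' UMIs, though the stromal and platelet lists were not used for it. An erythroid UMI was found in 62 of the 105 members. In these 24 members, set against barcodes chosen alike, the log2 ratio of Efnb2 was 0.89, under the 2-fold limit, in place of 1.07.

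Ivns1abp (chr1:151344477-151364422), whose product is a Kelch protein that binds actin, showed the steepest difference of the markers. It stood at 1449 CPM (1331 to 1574) in the members, 334 CPM (317 to 353) in other non-aerocyte barcodes and 70.7 CPM in aerocyte-like barcodes, a ratio of 4.33 (3.92 to 4.78) over the closest class. After thinning it was found in 78.7% of members, 36.7% of other non-aerocyte barcodes and 10.8% of aerocyte-like barcodes. Osmr (chr15:6813577-6874969), the receptor subunit for oncostatin M, stood at 262 CPM (213 to 318), 101 CPM (91.6 to 111) and 18.8 CPM in the same 3 classes, a ratio of 2.59 (2.06 to 3.22) over the closest class.

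Lpl (chr8:68880491-68907448), the lipase that releases fatty acids from lipoproteins, separated the members from aerocyte-like barcodes more than from the closest class. It stood at 625 CPM (548 to 709) in the members, 453 CPM (433 to 474) in other non-aerocyte barcodes and 49.1 CPM in aerocyte-like barcodes. Its ratio over the closest class was 1.38 (1.20 to 1.58). Gpihbp1, the capillary anchor of that lipase, behaved alike at 1620, 1226 and 155 CPM in the same order of classes. None of the 6 lipid handling genes tested reached 2-fold against the closest class, where 0.891% of all genes did so each way.

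**Figure D2:**
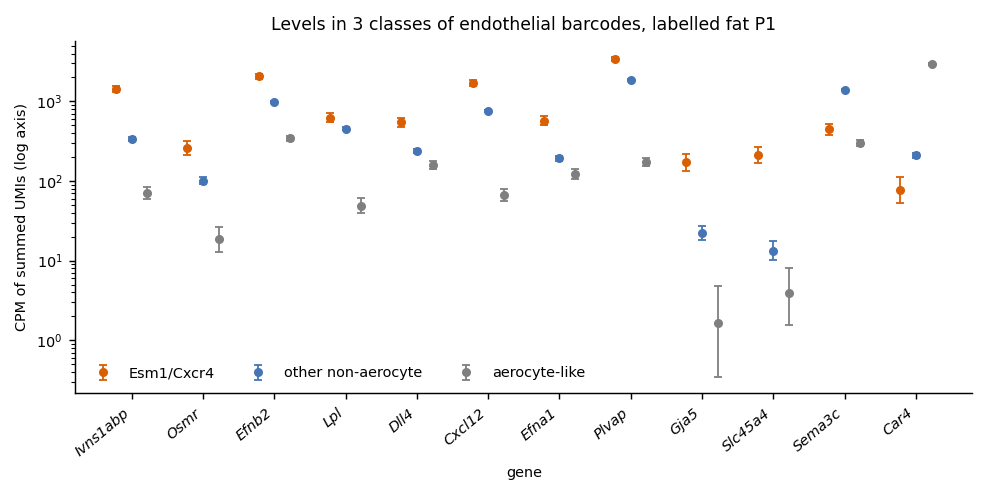
Levels of 12 genes (horizontal axis) in CPM of the summed UMIs (vertical axis, log scale) in Esm1/Cxcr4, other non-aerocyte and aerocyte-like barcodes of the library labelled fat P1. Points are class sums and bars are exact 95% Poisson intervals: Efnb2 stood at 2060, 978 and 343 CPM and Sema3c at 448, 1411 and 304 CPM in these classes.

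Across all genes, few separated the Esm1/Cxcr4 barcodes from the closest class. A gene entered a comparison, called tested from here on, where 1 of the 2 classes had at least 50 CPM, and was counted as higher or lower where the log2 ratio after adding 10 CPM was 1 or more either way. The 7 rule genes were left out of every count. Of 4265 genes, 38 (0.891%) were higher in the members and 38 (0.891%) were lower, with a median log2 ratio of 0.01 over all genes. Against all other kept barcodes 62 of 4332 genes (1.43%) were higher and 123 (2.84%) lower, and against aerocyte-like barcodes 356 of 4483 (7.94%) were higher and 365 (8.14%) lower. Of the 38 genes higher than in the closest class, 36 were also higher than in all other kept barcodes, which contain that class.

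**Figure D3:**
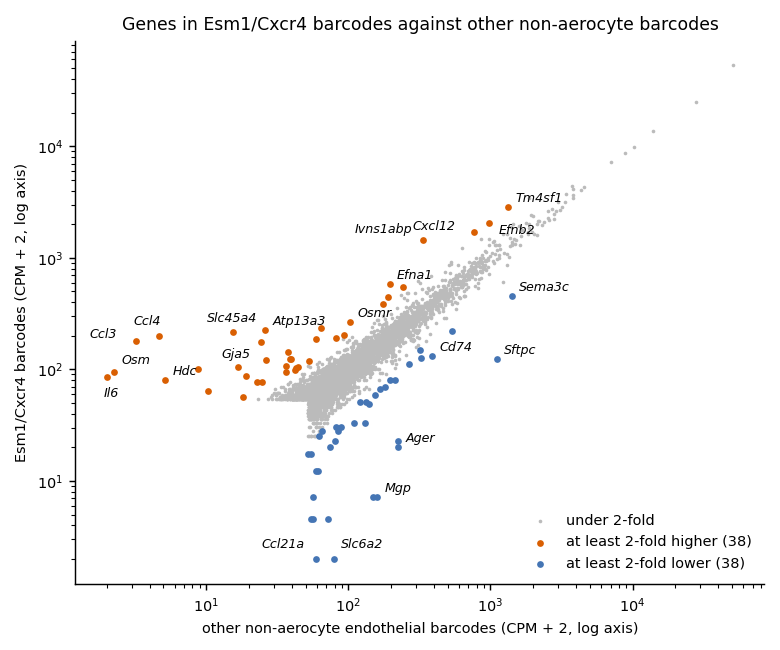
Each point is a gene with at least 50 CPM in 1 of the 2 classes, by its level in other non-aerocyte endothelial barcodes (horizontal axis) and in Esm1/Cxcr4 barcodes (vertical axis), in CPM plus 2 on log scales, without the 7 genes of the rule. The 38 genes at least 2-fold higher include Ivns1abp, Efnb2, Cxcl12 and Gja5, and the 38 at least 2-fold lower include Sema3c, Sftpc and Mgp.

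A single member set several of the highest ratios. That barcode, with 8123 UMIs, 7 of Cxcr4, 1 of Esm1, 23 of Cdh5, 9 of Pecam1 and 0 of Ptprc, held all 68 Ccl3, all 76 Ccl4, all 36 Osm and all 30 Hdc UMIs of the members and 31 of their 32 Il6 UMIs. Ccl3 and Ccl4 are chemokines of activated myeloid cells, Osm encodes oncostatin M, and Hdc encodes the enzyme that makes histamine. The same barcode also held the members' only UMIs of the mast cell or basophil genes Ms4a2 (1), Cd200r3 (3), Mcpt8 (1), Cyp11a1 (10), Fcer1g (4) and Tyrobp (7). With this barcode the log2 ratios over the closest class were 4.05 for Ccl3, 4.03 for Ccl4, 3.33 for Osm, 3.22 for Il6 and 2.74 for Hdc. Without it they were -0.17 for Ccl3, -0.34 for Ccl4, -0.035 for Osm, 0.34 for Il6 and -0.40 for Hdc. The counts over all genes became 33 of 4310 higher (0.766%) and 40 lower (0.928%).

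Atp13a3, a transporter of polyamines, was likewise uneven, with 77 of its 86 member UMIs in 3 barcodes, and its log2 ratio of 2.77 over the closest class was 0.33 in the 24 members free of other cell types' UMIs. Of the 38 higher genes, 31 had UMIs in at least 10 member barcodes, and the genes described next are among those unless another number is given.

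Genes of arteries and of Notch signalling were among the 38 higher genes. Gja5, the connexin 40 of arterial endothelium, stood at 174 CPM (135 to 220) in the Esm1/Cxcr4 barcodes, 22.4 CPM (18.0 to 27.4) in other non-aerocyte barcodes and 1.66 CPM in aerocyte-like barcodes. Gja1, connexin 43, had 104, 14.8 and 1.66 CPM in these classes, and Mecom, a transcription factor of arterial endothelium, had 140, 35.5 and 6.07 CPM. These genes were each in a minority of members: Gja5 in 23, Gja1 in 20 and Mecom in 30 of 105 barcodes. The 3 members with most Atp13a3 UMIs held 17 of the 67 Gja5 UMIs, 3 of the 40 Gja1 UMIs and 3 of the 54 Mecom UMIs.

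Dll4, the Notch ligand of tip and arterial cells, stood at 544 CPM (473 to 623) in the members, 239 CPM (225 to 255) in other non-aerocyte barcodes and 157 CPM in aerocyte-like barcodes, and 87 of 105 members carried it. Nrarp, a Notch target, stood at 104, 42.0 and 14.9 CPM in these classes. Hey1, another Notch target, at 612, 308 and 37.5 CPM, stayed just under the 2-fold limit against the closest class with a ratio of 1.99 (1.72 to 2.28). Notch1 had a ratio of 1.81 (1.58 to 2.06) and Notch4 of 1.06 (0.805 to 1.37).

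Of 16 listed arterial genes, 13 were tested against the closest class, of which 4 were higher (Gja5, Cxcl12, Efnb2 and Dll4) and 1 lower (Mgp), where 0.891% of all genes were called each way. Efnb2 was one of the markers given for these cells. Over the processing settings the lowest log2 ratios were 0.89 for Efnb2, 0.65 for Cxcl12, 1.04 for Dll4 and 1.44 for Gja5. The median log2 ratio of the list was 0.53, beside 0.01 over all genes. The list was not uniform: Gja4, connexin 37, stood at 218 CPM in members and 222 CPM in other non-aerocyte barcodes, and Sox17 at 155 CPM in members and 299 CPM in other non-aerocyte barcodes. Against aerocyte-like barcodes 10 of 11 tested arterial genes were higher, where 7.94% of all genes were. In the 24 members free of other cell types' UMIs the log2 ratios over the closest class were 1.44 for Gja5 and 1.41 for Gja1, in place of 2.50 and 2.19. Any of Gja5, Gja1, Mecom and the arterial kinase gene Bmx was found in 54 of 105 members (51.4%, 41.5 to 61.3), 183 of 1388 other non-aerocyte barcodes (13.2%, 11.4 to 15.1) and 11 of 417 aerocyte-like barcodes (2.64%, 1.32 to 4.67). After thinning the shares were 41.5%, 10.9% and 1.62%. These 4 genes were put together after their values had been seen.

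Most tested tip cell genes other than Esm1 and Cxcr4 lay slightly above the closest class, and 1 reached 2-fold. Of 30 listed, 17 were tested, of which 14 had a log2 ratio above 0, where 52.0% of all genes did, with a median of 0.27 beside 0.01 over all genes. Dll4 was higher by at least 2-fold and none was lower, beside 0.891% of all genes each way. Apln, a secreted peptide of retinal tip cells, had 5 UMIs in all members (13.0 CPM, 4.21 to 30.2), against 20.9 CPM in other non-aerocyte and 475 CPM in aerocyte-like barcodes. Kdr, the main VEGF receptor, stood at 632 CPM in members, 580 CPM in other non-aerocyte barcodes and 3238 CPM in aerocyte-like barcodes. Angpt2, an angiopoietin made by tip cells, had 20 UMIs in members (51.8 CPM, 31.7 to 80.0) and stood at 37.2 CPM in other non-aerocyte barcodes. Nid2, Adm and Igf2 had 0 UMIs in the members, where 3 UMIs would be 7.77 CPM. Against aerocyte-like barcodes 6 of 19 tip cell genes were higher and 7 lower, where 7.94% of all genes were higher and 8.14% lower. Pdgfb, Nrp1 and Plaur were among the lower genes. With 1 of 17 past 2-fold against the closest class and genes in both directions against aerocyte-like barcodes, the barcodes are called by their leading genes and not by a cell type.

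Of 16 listed Notch and stalk cell genes, 13 were tested against the closest class, with Nrarp higher, none lower and a median log2 ratio of -0.10. Over all genes 0.891% were counted each way in this comparison. The 9 tested hypoxia and glycolysis genes, the 10 interferon genes and the 10 immediate early genes had none past 2-fold, with medians of 0.28, 0.22 and 0.11. Of 14 proliferation genes 1 was tested and was not past 2-fold, and Mki67 had 0 UMIs in members.

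Of 7 tested chemokine and cytokine genes, Cxcl12, Cx3cl1, Cxcl16 and Ccl3 were higher than in the closest class and Ccl21a, with 0 UMIs in members, was lower, beside 0.891% of all genes each way. The median log2 ratio of the list was 1.15. Without the barcode that held all Ccl3 UMIs, 6 genes of the list were tested, 3 were higher and 1 lower, and the median was 0.42. Cxcl12, the ligand of Cxcr4, stood at 1708 CPM (1580 to 1843) in members, 758 CPM (732 to 785) in other non-aerocyte barcodes and 66.8 CPM in aerocyte-like barcodes. A receptor and its ligand were thus both measured in this set, and 79 of the 659 Cxcl12 UMIs came from the barcode with Ccl3 and Ccl4, without which the log2 ratio over the closest class was 1.01 in place of 1.16. The ratio also went under 2-fold with a mean over barcodes (0.92), with the rule applied after thinning (0.71) and in barcodes free of other cell types' UMIs (0.65). Cx3cl1, the membrane-bound chemokine fractalkine, stood at 189 CPM in members, 79.5 CPM in other non-aerocyte barcodes and 90.0 CPM in aerocyte-like barcodes. Cxcl16, another membrane-bound chemokine, stood at 122, 36.7 and 96.6 CPM in these classes.

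Of 5 tested ephrin and Eph genes, the ligands Efnb2 and Efna1 were higher than in the closest class and none was lower. Over all genes 0.891% were counted each way, and Efnb2 was one of the markers given for these cells. Efna1 stood at 575 CPM (502 to 656) in members, 193 CPM (180 to 207) in other non-aerocyte barcodes and 123 CPM in aerocyte-like barcodes, with a log2 ratio of 1.53 over the closest class that was 0.90 in the 24 members free of other cell types' UMIs. The related ligand Efnb1 stood at 355 CPM in members and 463 CPM in other non-aerocyte barcodes, and Ephb4, the venous receptor of Efnb2, at 215 CPM in members and 270.5 CPM in other non-aerocyte barcodes. Of the 7 tested genes of the interleukin 6 family pathway, Osmr alone, also a given marker, was higher, beside 0.891% of all genes. The partner of Osmr, Il6st (gp130), stood at 308 CPM in members and 371 CPM in other non-aerocyte barcodes. Lifr, the alternative partner of gp130, stood at 368 CPM in members and 425 CPM in other non-aerocyte barcodes.

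Slc45a4, a solute carrier, had the highest ratio among genes found in at least 10 member barcodes. It stood at 212 CPM (169 to 264) in the members, 13.4 CPM (10.1 to 17.4) in other non-aerocyte barcodes and 3.86 CPM in aerocyte-like barcodes, and 26 of 105 members carried it. Its log2 ratio over the closest class was 3.25, and 1.5 in the 24 members free of other cell types' UMIs. Stc1, the secreted stanniocalcin 1, had 119, 24.5 and 4.97 CPM in these classes, and Adgrg6, an adhesion receptor, had 231, 62.5 and 6.63 CPM. In the 24 members free of other cell types' UMIs the log2 ratio of Adgrg6 was 0.14, in place of 1.73, and that of Stc1 was 1.22, in place of 1.90. Bdkrb2, the bradykinin receptor B2, stood at 85.5 CPM in members and 17.0 CPM in other non-aerocyte barcodes, below the 143 CPM of aerocyte-like barcodes. Scgb3a1, a secretoglobin, stood at 98.5 CPM in members and 6.80 CPM in other non-aerocyte barcodes. Most of its member UMIs, 32, lay in 10 barcodes with 5 or more Esm1 UMIs. Members with 1 to 4 and with 0 Esm1 UMIs held 3 each. Olfm2, a secreted olfactomedin, stood at 62.2 CPM in members, carried by 9 of them, and at 8.26 CPM in other non-aerocyte barcodes, with a log2 ratio of 1.98 that was 0.57 in the 24 members free of other cell types' UMIs.

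Among abundant genes, Tm4sf1, a membrane protein of migrating endothelium, stood at 2851 CPM in members and 1333 CPM in other non-aerocyte barcodes, a ratio of 2.14. Its log2 ratio of 1.09 was 0.99 in the 24 members free of other cell types' UMIs. Plvap, the protein of fenestral diaphragms, stood at 3449 CPM in members, 1857 CPM in other non-aerocyte barcodes and 174 CPM in aerocyte-like barcodes. Both were nearly universal in the members, with Plvap in 104 and Tm4sf1 in 98 of 105 barcodes. Of the 15 tested general capillary genes, 14 were higher in the members than in aerocyte-like barcodes, where 7.94% of all genes were. Their median log2 ratio was 3.04, beside 0.03 over all genes. Against the closest class Cxcl12 was higher and Sema3c lower, beside 0.891% of all genes each way, with a median of 0.10.

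**Figure D4:**
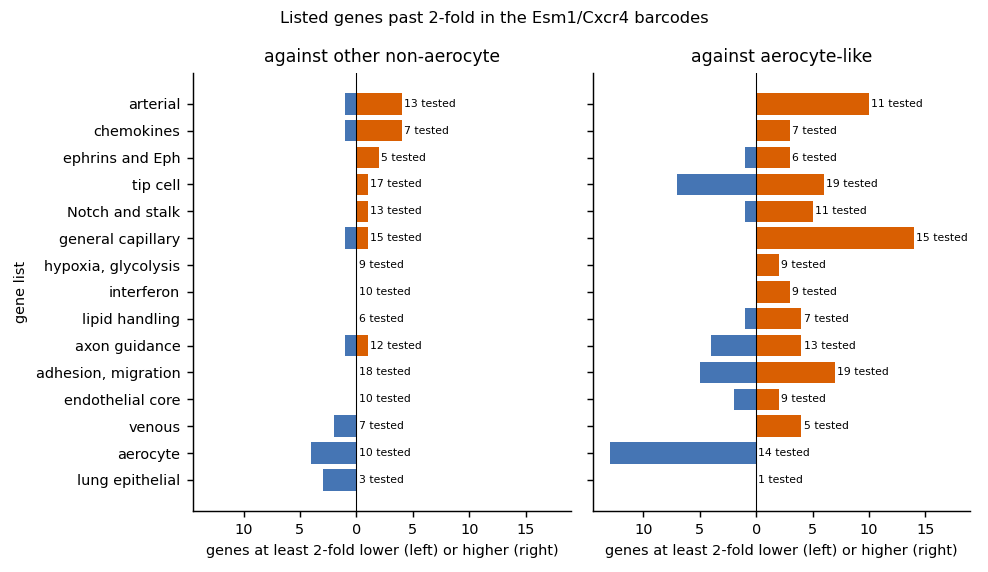
Number of listed genes (bars) at least 2-fold higher (right of 0) or lower (left of 0) in Esm1/Cxcr4 barcodes, against other non-aerocyte barcodes (left panel) and against aerocyte-like barcodes (right panel), with the number tested beside each bar. Arterial genes counted 4 higher of 13 in the left panel and 10 of 11 in the right panel, and tip cell genes 1 higher of 17 and 6 higher with 7 lower of 19. The arterial and ephrin counts include Efnb2, a marker given for these cells. Over all genes 0.891% counted each way in the left panel, and 7.94% higher and 8.14% lower in the right panel.

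Sema3c, a secreted semaphorin, was the most abundant gene lower in the Esm1/Cxcr4 barcodes. It stood at 448 CPM (384 to 520) in members, 1411 CPM (1375 to 1448) in other non-aerocyte barcodes and 304 CPM in aerocyte-like barcodes. After thinning it was found in 38.3%, 75.7% and 42.2% of these classes. Sox11, a transcription factor, stood at 124 CPM in members and 324 CPM in other non-aerocyte barcodes, and Ptgs1, cyclooxygenase 1, at 31.1 CPM in members and 129 CPM in other non-aerocyte barcodes.

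Of 7 tested venous genes, none was higher than in the closest class and 2 were lower, beside 0.891% of all genes each way, with a median log2 ratio of -0.78 beside 0.01 over all genes. Slc6a2, a noradrenaline transporter gene, had 0 UMIs in the members against 77.3 CPM in other non-aerocyte barcodes. It was 9.94-fold lower when the members are set to 3 UMIs, while the exact interval of a count of 0 reaches 9.56 CPM. Vcam1, a leukocyte adhesion molecule, had 4 UMIs in members (10.4 CPM, 2.82 to 26.5) and stood at 57.4 CPM in other non-aerocyte barcodes. Vegfc, a growth factor of lymphatic vessels, had 2 UMIs in members (5.18 CPM, 0.628 to 18.7), against 54.2 CPM in other non-aerocyte barcodes. Vwf, a marker of veins and large vessels, stood at 378 CPM (319 to 445) in members and 358 CPM (340 to 377) in other non-aerocyte barcodes. The 3 members with most Atp13a3 UMIs held 41 of the 146 Vwf UMIs of the members, so its likeness between the classes rests in part on them.

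Aerocyte genes that the rule did not use were also lower than in the closest class, in 4 of 10 tested, where 0.891% of all genes were, and with a median log2 ratio of -0.86. Car4, a membrane carbonic anhydrase, stood at 77.7 CPM (52.5 to 111) in members, 210 CPM (196 to 225) in other non-aerocyte barcodes and 2975 CPM in aerocyte-like barcodes. Emp2, an epithelial membrane protein that aerocytes share, stood at 220, 538 and 5682 CPM in the same classes. Ednrb and Fibin, limited to 3 UMIs together in both of the first 2 classes, stood at 18.1 and 13.0 CPM in members and 39.1 and 21.9 CPM in other non-aerocyte barcodes, which were shallower, and the part of that limit in these differences was not tested. The log2 ratio of Car4 over the closest class, -1.33, went under the 2-fold limit with at most 5% mitochondrial UMIs (-0.96) and with the rule applied after thinning (-0.89).

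Genes of other cell types had lower sums in the members than in the closest class, and several of the lower genes belong to them. Of 10 lung epithelial genes 3 had 0 UMIs in members, and the list summed to 153 CPM in members and 1490 CPM in other non-aerocyte barcodes. Sftpc stood at 122 CPM in members and 1106 CPM in other non-aerocyte barcodes, yet after thinning it was found in 24.5% of members, 26.6% of other non-aerocyte barcodes and 74 of 370 aerocyte-like barcodes. The share of barcodes with Sftpc was thus close in all 3 classes while the summed level differed. The log2 ratio of Sftpc, -3.08, was -1.35 with a mean over barcodes, and its 2-fold call was lost with at most 5% mitochondrial UMIs (-0.78), with the rule applied after thinning (-0.18) and without barcodes with other epithelial or stromal UMIs (-0.44). Mgp, a calcification inhibitor of mural and stromal cells that arterial endothelium shares, had 2 UMIs in members and 158 CPM in other non-aerocyte barcodes, and Gsn, gelsolin, had 2 UMIs and 147 CPM.

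Ager, Sftpa1, Sftpd, Cldn18 and Inmt, genes of alveolar epithelium or stroma, were lower as well, with 1 to 8 UMIs in the members. The log2 ratio of Sftpa1, -2.92, was -0.31 with at most 5% mitochondrial UMIs, and that of Sftpd, -2.35, turned to 0.065. Of 12 stromal genes 6 had 0 UMIs in members, with a sum of 15.5 CPM, against 146 CPM in other non-aerocyte barcodes. Of 21 leukocyte genes, a list without the rule gene Ptprc, 13 had 0 UMIs in members. The list summed to 205 CPM in members and 475 CPM in other non-aerocyte barcodes. The 5 erythroid genes summed to 220 CPM in members and 248 CPM in other non-aerocyte barcodes, and 5 platelet genes had 0 UMIs in members. Leaving out barcodes with epithelial or stromal UMIs other than Sftpc moved Gsn to a log2 ratio of 0.042, in place of -3.37. The part of these other cell types in the remaining differences was not tested.

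The members differed among themselves by which of the 2 rule genes they carried. Of the 38 genes higher over all members, 32 were above the closest class in the 24 barcodes with Esm1 alone, 32 in the 32 barcodes with Cxcr4 alone and 38 in the 49 with both. They were at least 2-fold above it in 21, 17 and 37 cases, with median log2 ratios of 1.10, 0.90 and 1.78. All 38 lower genes lay below the closest class in each of the 3 subsets. Since these genes were chosen over the same members, the counts describe the spread and are no support for it. Barcodes with any of Gja5, Gja1, Mecom and Bmx, put together after their values were seen, were counted in the same subsets. They made up 41.7% (22.1 to 63.4) with Esm1 alone, 37.5% (21.1 to 56.3) with Cxcr4 alone and 65.3% (50.4 to 78.3) with both. These intervals overlapped, and after thinning the shares were 31.8%, 22.2% and 57.8%.

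Levels also varied with the number of Esm1 and Cxcr4 UMIs on either side of the limit. The 1227 non-aerocyte barcodes with 0 UMIs, the 161 with 1 UMI, the 46 members with 2 and the 59 members with 3 or more had Efnb2 at 903, 1509, 2021 and 2089 CPM. Ivns1abp stood at 288, 664, 909 and 1839 CPM over the same 4 bins, and Sema3c at 1485, 884, 637 and 312 CPM. Barcodes with 1 UMI thus lay between those with 0 and the members for these 3 genes. Lpl, at 429, 629, 779 and 513 CPM, was highest just inside the limit. Median depth was 2679, 2977, 3232.5 and 3553 UMIs in these bins, and its part in the gradient was not tested.

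On the aerocyte side, 5 barcodes with 2 or more Esm1 and Cxcr4 UMIs were left out because Ednrb and Fibin reached 4 or more. They had Efnb2 at 1559 CPM, Ivns1abp at 301 CPM, Car4 at 1614 CPM and Emp2 at 3091 CPM. Among members, 95 had no Ednrb or Fibin UMI and 1 stood at the limit of 3.

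Members with many Esm1 UMIs differed from members with none, a split chosen after these values had been seen. The 22 members with 5 or more Esm1 UMIs held 73288 UMIs and the 32 members with 0 held 122541, and Cxcr4 stood at 723 and 743 CPM in them. Members with 0 Esm1 UMIs had at least 2 Cxcr4 UMIs by the rule. Of 1064 genes with at least 200 CPM in 1 of them, 66 (6.2%) were at least 2-fold higher with 5 or more Esm1 UMIs and 60 (5.64%) lower, at sums where 3 UMIs are 40.9 and 24.5 CPM. Ivns1abp stood at 3398 CPM (2989 to 3847) with 5 or more Esm1 UMIs and 816 CPM (664 to 993) with 0. Slc45a4 stood at 764 CPM (577 to 992) with 5 or more and 65.3 CPM (28.2 to 129) with 0, and Dll4 at 914 and 433 CPM.

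Ctgf, a matricellular target of mechanical signalling, had 21 UMIs in 10 barcodes with 5 or more Esm1 UMIs (287 CPM) and 1 UMI in those with 0 (8.16 CPM). Gja1, at 232 and 32.6 CPM, was also higher with many Esm1 UMIs. Mecom stood at 218 CPM (125 to 355) with 5 or more and 73.4 CPM (33.6 to 139) with 0. Its log2 ratio of 1.45 counted among the 66 higher genes, although the 2 intervals overlapped. Efnb2 stood at 2483 CPM (2136 to 2872) with 5 or more and 2089 CPM (1841 to 2361) with 0. Lpl stood at 641 and 637 CPM, and neither Efnb2 nor Lpl differed beyond its intervals.

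Other genes ran the opposite way. Cxcl12 stood at 600 CPM (436 to 806) with 5 or more Esm1 UMIs and 1877 CPM (1642 to 2136) with 0. Calcrl, the receptor for adrenomedullin, stood at 1133 CPM (902 to 1404) with 5 or more and 3607 CPM (3278 to 3959) with 0. Sema3c, at 109 CPM with 5 or more and 808 CPM with 0, and Gja4, at 40.9 and 310 CPM, were lower with many Esm1 UMIs too. Vwf stood at 191 CPM (104 to 321) with 5 or more and 563 CPM (438 to 713) with 0, but 2 barcodes held 32 of the 69 Vwf UMIs of members with 0 Esm1. Without these 2 barcodes, which carry much Atp13a3, Vwf stood at 326 CPM (230 to 450) with 0 and the intervals overlapped. Slc45a4 stood at 35.3 CPM and Gja1 at 8.82 CPM with 0 Esm1 UMIs when they were left out. The ligand Cxcl12 was thus lowest in the members with most Esm1, although it was higher in the members as a whole than in the closest class.

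**Figure D5:**
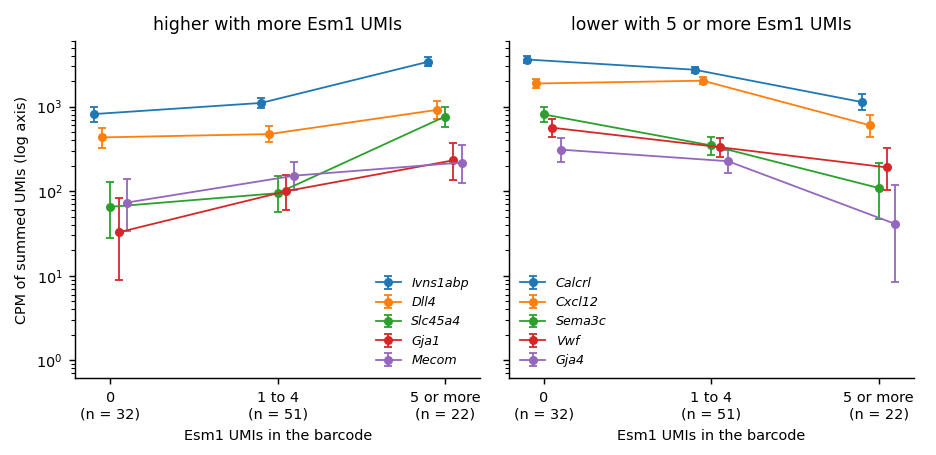
Levels of 10 genes in CPM of summed UMIs (vertical axis, log scale) in Esm1/Cxcr4 barcodes with 0, 1 to 4 and 5 or more Esm1 UMIs (horizontal axis, 32, 51 and 22 barcodes), with exact 95% Poisson intervals as bars. Ivns1abp stood at 816, 1105 and 3398 CPM over the 3 bins and Cxcl12 at 1877, 2026 and 600 CPM.

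The same rule picked out few barcodes in the other libraries, except in the library labelled lung P1. There 34 of 652 kept barcodes met it (5.21%, 3.64 to 7.21), in the fat P2 library 1 of 7898, and in the lung P2 library 0 of 1436, which allows a share of up to 0.257%. The 34 barcodes were shallower, with 65909 UMIs and a median of 1891.5. In that library Esm1 reached 1077 CPM in the barcodes that met the rule, close to the 1088 CPM of the Esm1/Cxcr4 barcodes above, but also 155 CPM in the 565 other non-aerocyte endothelial barcodes. Cxcr4 was not alike. The 34 barcodes held 71 UMIs of Esm1 and 8 of Cxcr4 (121 CPM, 52.4 to 239), while the Esm1/Cxcr4 barcodes above held 420 and 201. The rule thus rested more on Esm1 under the label lung P1.

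No gene counted as higher in the Esm1/Cxcr4 barcodes of the library labelled fat P1 and tested in the library labelled lung P1 reached 2-fold there. Of the 38 higher genes 18 reached 50 CPM there, of which 13 had a log2 ratio above 0 and 0 reached 2-fold, where 6.66% of the 3861 genes tested did so. Their median log2 ratio was 0.14, beside 0.07 over all genes. Efnb2 had 3 UMIs in the 34 barcodes (45.5 CPM, 9.39 to 133) and stood at 115 CPM in the other non-aerocyte barcodes of that library. Ivns1abp stood at 137 CPM (62.4 to 259) in the barcodes that met the rule and 180 CPM in the others, Lpl at 106 CPM (42.7 to 219) and 134 CPM, and Osmr at 182 CPM (94.1 to 318) and 142 CPM. The ratio was 0.396 (0.0804 to 1.19) for Efnb2, 0.757 (0.341 to 1.47) for Ivns1abp and 0.795 (0.313 to 1.68) for Lpl, with upper bounds under 2-fold higher, and 1.28 (0.647 to 2.31) for Osmr, which allows it. Tissue, depth, library and the lower Cxcr4 under the label lung P1 cannot be told apart between the 2 libraries.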

How the data were processed

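Droplet-based 3′ single-cell RNA libraries (10x Genomics Chromium) were deposited as matrices of UMI counts per gene and barcode, made with Cell Ranger 3.1.0 on the build mm10, per the submitters' processing notes. The deposited counts carry no normalization. The members and gene lists were chosen with earlier results of these data known.

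UMIs were summed over the barcodes of a class and scaled to 1000000 UMIs (CPM). Ratios are log2 after adding 10 CPM, and a gene was called at 2-fold with at least 50 CPM in 1 of the 2 classes. Intervals are exact Poisson (CPM), exact conditional (ratios) and Clopper-Pearson (shares). Shares were compared after thinning each barcode to 2000 UMIs (seed 1). No doublets were removed. Named genes were the 15 highest and 10 lowest ratios against the closest class, the 10 highest and lowest against all other kept barcodes, up to 4 of each list, the markers and the sort gate genes; Sox11, Ptgs1, Calcrl, Ctgf, Nxn and the genes in the split by Esm1 were added after their values were seen. Cell type classes rest on thresholds, not on clusters. Scripts ran in Python 3.11.15 with numpy 2.4.6, scipy 1.17.1, matplotlib 3.10.9 and scanpy 1.11.5 and were tested on simulated data. Gene coordinates came from GENCODE on GRCm38, matched by gene ID.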

Additional observations from a re-analysis of the deposited data

Results flagged for a closer look

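Of the 38 genes higher in the Esm1/Cxcr4 barcodes of the library labelled fat P1 and the marker Lpl, 19 reached 50 CPM under the label lung P1, and for 6 of these the difference between barcodes that met the rule and other non-aerocyte endothelial barcodes had opposite signs under the 2 labels. Efnb2 had a log2 ratio of 1.07 under the label fat P1 and of -1.17 under the label lung P1. Ivns1abp had 2.08 under the label fat P1 and -0.38 under the label lung P1. Cxcl12 had 1.16 and -0.20, Gja5 had 2.50 and -0.40, Lpl had 0.45 and -0.31, and Nxn, a thioredoxin-like enzyme, had 1.05 and -0.042 under the same labels. Under the label lung P1 the 95% interval of the ratio included 1 for each of these 6 genes, so no sign there was settled. The interval was 0.655 to 1.13 for Cxcl12, 0.145 to 2.21 for Gja5 and 0.434 to 1.89 for Nxn. Of the 20 genes under 50 CPM, 12 had the opposite sign, with at most 2 UMIs each in the barcodes that met the rule under the label lung P1. With 1 library each the difference was not tested, and the 34 barcodes of the library labelled lung P1 held 3 UMIs each of Efnb2 and Gja5.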

How the results depend on the processing

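No paired analysis was possible because each group is 1 library and no result comes from a test. Of 17 settings, 13 were planned and 4 were added after seeing the data: 1 barcode left out, at least 10 member barcodes for a higher call, barcodes with epithelial or stromal UMIs left out, and, for the split by Esm1, 2 barcodes rich in Atp13a3 left out. Adding 1 CPM, scaling by the median of ratios, a mean of CPM over barcodes, at least 2000 UMIs a barcode, at most 1 Ednrb and Fibin UMI, and removal of 30 barcodes by doublet score, none of them a member, and the 4 added settings kept every count of genes they gave within 1.5 times. Counts of genes are given next as higher and lower, against all other kept, other non-aerocyte and aerocyte-like barcodes in that order, where they moved further. With 50 CPM added they were 34 and 64, 23 and 14, 206 and 215. With no minimum level they were 106 and 338, 76 and 168, 601 and 592. A minimum of 100 CPM gave 68 lower against all other kept barcodes, 21 lower against other non-aerocyte barcodes and 224 higher against aerocyte-like barcodes. Smaller sets of members gave more calls. At most 5% mitochondrial UMIs left 47 members, with 122 and 214 genes against all other kept barcodes and 76 and 108 against other non-aerocyte barcodes. At least 3 Esm1 and Cxcr4 UMIs left 59 members (3.03%), with 105 higher against all other kept barcodes and 84 and 100 against other non-aerocyte barcodes. The rule after thinning left 61 members (4.09%), with 97 higher against all other kept barcodes and 69 and 95 against other non-aerocyte barcodes. Without UMIs of other cell types 24 members were left, with 358 and 358, 321 and 295, and 717 and 622 genes.

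Over the settings the log2 ratio over other non-aerocyte barcodes ran from 1.96 to 2.57 for Ivns1abp, 1.04 to 1.57 for Osmr, 0.89 to 1.29 for Efnb2, 0.07 to 0.53 for Lpl, 1.44 to 2.90 for Gja5 and 1.5 to 3.94 for Slc45a4. Directions turned for few genes. Ccl3, Ccl4, Hdc and Osm turned to -0.17, -0.34, -0.40 and -0.035 without 1 barcode. Ccl3, Ccl4, Hdc, Osm and Il6 turned to -1.47, -1.65, -1.06, -0.96 and -0.30 with the rule after thinning, by which that barcode was no longer a member, and Ccl3, Ccl4 and Hdc to -0.25, -0.13 and -0.25 without UMIs of other cell types. Sftpa1 turned to 0.22 with the rule after thinning, and Sftpd to 0.075 there and to 0.065 with at most 5% mitochondrial UMIs. Gsn turned to 0.042 without epithelial or stromal UMIs. Genes with few UMIs limit all of this, since 3 UMIs are 7.77 CPM in the members.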
